A study of Mus musculus with 8 samples.

Results

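Brains of CAA mice under chronic restraint stress were compared with brains of mock-treated wild-type mice, that is, both insults against neither, over all expressed genes. The comparison holds 4 of the 8 libraries of the study, labelled CAA stress (replicates 1 and 2) and WT mock (replicates 1 and 2). The other 4 libraries, WT stress and CAA mock, give each insult on its own and were used to ask whether the 2 single effects sum to the combined difference. Of 54532 genes in the deposited count table, 17182 had enough counts to be tested.

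WT stands for wild type, and CAA for cerebral amyloid angiopathy, as the labels give the disease state. The stress was chronic restraint, the other mice were mock-treated, and all mice were perfused with PBS before the brains were taken, per the series' design text, so all 4 groups share the perfusion. The strain or transgene behind the CAA label, its promoter, the age and sex of the mice, the length of the stress and the part of the brain used were not stated in the labels. Each group holds 2 libraries whose titles do not say that they came from separate animals, so a p-value here covers the spread between libraries, which may be technical.

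In cerebral amyloid angiopathy, amyloid-beta collects in the walls of small arteries and capillaries of the brain, where it meets smooth muscle cells, pericytes, fibroblasts and the macrophages of the perivascular space. Restraint stress activates the hypothalamus, pituitary and adrenal axis, and the glucocorticoids it releases switch on target genes in neurons, glia and vessels. The study's title concerns neutrophil extracellular traps, the strands of chromatin, studded with granule enzymes, that neutrophils cast out. Effects of 2 insults are called additive here when their log2 fold changes sum, that is, when their folds multiply; the departure from that sum is the interaction of genotype and stress.

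The libraries held 17275201 to 18894657 counts, and 99.9% of each library's counts fell on the tested genes. By counts of Xist, the RNA of the inactive X chromosome, and of Y-linked genes, WT mock 1 and CAA stress 1 were female (4575 and 3340 Xist counts, 0 Y-linked counts) and the other 6 libraries male (0 to 24 Xist counts, 2260 to 2833 Y-linked counts). The combined comparison thus has 1 female and 1 male library on each side, with the replicate number and the sex the same split. WT stress and CAA mock were all male, so in the departure from additivity both female libraries enter with the same sign. Neuronal and glial genes of the brain were present in every library (Slc17a7, the vesicular glutamate transporter, at 682 to 1667 CPM, and Gfap, of astrocytes, at 162 to 676 CPM; CPM are read counts scaled to the TMM-normalised library size). Markers of brain regions varied between replicates: the 12 striatal markers had a mean centred log2 level of -2.17 in WT mock 1 and -2.01 in CAA mock 2, against 0.10 to 1.05 in the other 6 libraries. The share of counts on mitochondrial genes was 6.10% in CAA stress 2 and 7.89% to 9.99% in the other 7.

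In brains with both insults, 1 gene was higher and 1 lower than in WT mock. Wdfy1, whose product sits on endosomes and passes on signals of Toll-like receptors, rose 4.51-fold, and Ngef, which encodes ephexin-1, a guanine nucleotide exchange factor downstream of Eph receptors in neurons, fell 3.97-fold. These 2 genes are 0.0116% of those tested (0.00582% in each direction; edgeR quasi-likelihood test, Benjamini-Hochberg adjusted p under 0.05). Before adjustment 1170 genes had p under 0.05 (549 higher, 621 lower), where 859 would be 5% of the genes tested. The median log2 difference over all tested genes was 0.01, and the median half-width of its 95% interval was 0.54.

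Wdfy1 stood at 10.3 and 12.3 CPM in the WT mock libraries and at 12.5 and 9.87 CPM in WT stress. It stood at 55.1 and 65.7 CPM in CAA mock and at 54.7 and 47.3 CPM in CAA stress. All 4 CAA libraries lay far above all 4 WT libraries, and within a genotype the stressed libraries lay around the mock libraries (WT) or just below them (CAA). The log2 difference between CAA stress and WT mock was 2.17 ± 0.19 (SE; edgeR adjusted p = 0.00371). On its own CAA gave 2.42 ± 0.19 and stress -0.01 ± 0.20, and the departure from their sum was -0.23 ± 0.27 (95% interval -0.82 to 0.36; edgeR adjusted p = 0.995). If the log2 effects summed, CAA stress would have averaged 59.8 CPM, and if the CPM effects summed, 60.3 CPM. The observed mean was 51.0 ± 5.22 CPM (SD, n = 2). Wdfy1 lies on the minus strand of chromosome 1 (mm10, 79702262 to 79776143). The call was lost in males alone (log2 difference 1.95, edgeR adjusted p = 0.106) and with limma on log2 FPKM (adjusted p = 0.0640 with a pseudocount of 1, 0.0611 with 0.1), while the difference stayed between 1.68 and 2.30 in all 18 other settings tried.

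Ngef stood at 257 and 291 CPM in WT mock and at 320 and 271 CPM in WT stress. In CAA mock it stood at 70.9 and 40.4 CPM, and in CAA stress at 67.7 and 70.4 CPM. The CAA libraries did not overlap the WT libraries in either treatment. The log2 difference between CAA stress and WT mock was -1.99 ± 0.23 (SE; edgeR adjusted p = 0.0356). CAA alone gave -2.30 ± 0.23, stress alone 0.11 ± 0.23, and the departure was 0.20 ± 0.32 (95% interval -0.51 to 0.91). The CAA stress mean of 69.0 ± 1.94 CPM (SD, n = 2) lay between the 60.0 CPM of summed log2 effects and the 77.0 CPM of summed CPM effects. The combined call was less firm than that of Wdfy1: Ngef passed in 7 of the 18 other settings, and its edgeR adjusted p reached 0.470 without CAA stress 2 and 0.462 in males, with the log2 difference between -2.08 and -1.90 throughout.

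Ngef lies on the minus strand of chromosome 1 (mm10, 87476834 to 87573870), and Neu2, a cytosolic sialidase gene on the plus strand (87509889 to 87597845), overlaps it by 63982 bases. The sources used here do not say whether reads were counted by strand, so reads of the pair cannot be told apart where they overlap. Neu2 stood at 5.16 and 4.94 CPM in WT mock and at 1.80 and 0.911 CPM in CAA stress (log2 difference -1.89 ± 0.46, edgeR adjusted p = 0.730). Its values in CAA mock, 1.40 and 0.563 CPM, were as low. Wdfy1 shares 126 bases with the gene Mrpl44 on the other strand.

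**Figure D1:**
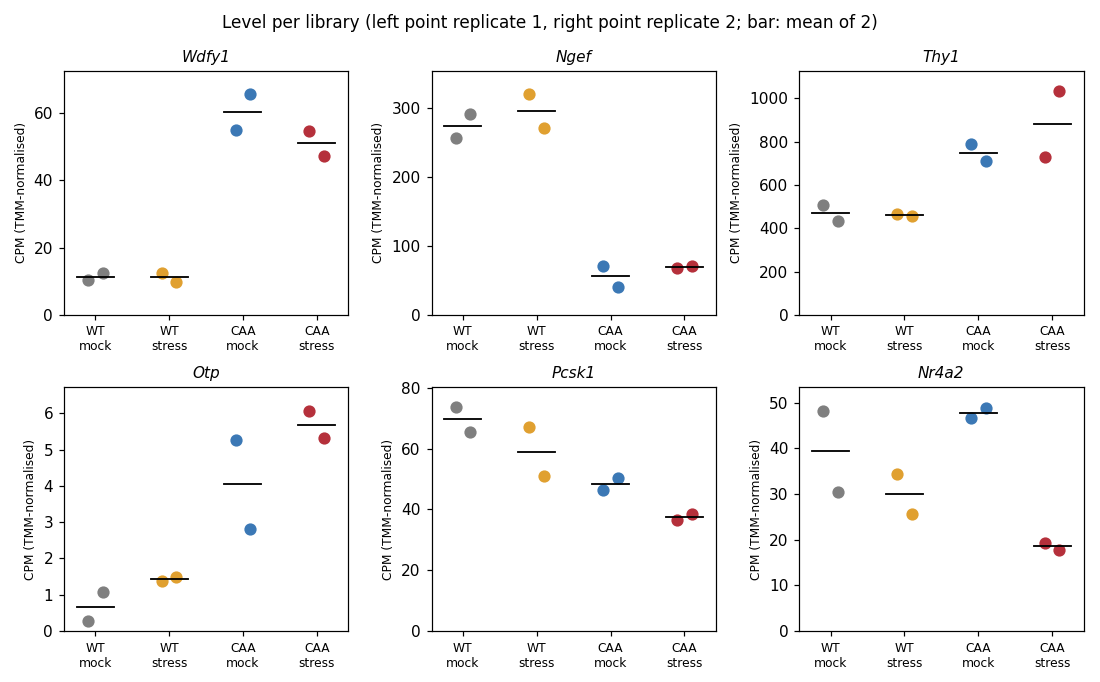
Normalised level (CPM, linear axis from 0) of 6 genes in each of the 8 libraries; points are libraries, with replicate 1 on the left, and the bar is the mean of 2. Wdfy1 is high and Ngef low in all 4 CAA libraries whether stressed or not, while Pcsk1 and Nr4a2 are lowest in the 2 CAA stress libraries.

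The genes with the next smallest p-values among those without overlap between CAA stress and WT mock did not pass in edgeR (adjusted p = 0.730). They are given as values, and their lack of overlap was part of the choice. Among the higher ones, Thy1, a neuronal surface glycoprotein, stood at 505 and 434 CPM in WT mock, 466 and 457 CPM in WT stress, 791 and 709 CPM in CAA mock and 729 and 1034 CPM in CAA stress. Every CAA library lay above every WT library. Its log2 difference was 0.91 ± 0.18, with -0.03 for stress alone, 0.67 for CAA alone and a departure of 0.26 ± 0.26. DESeq2 called it (adjusted p = 0.0149). Many transgenes are driven in mouse neurons by the Thy1 promoter; the strain was not stated, and reads of the gene and of any transgene with parts of it cannot be told apart in gene counts. Otp, a homeobox gene of the developing hypothalamus, stood at 0.269 and 1.07 CPM in WT mock and 6.05 and 5.30 CPM in CAA stress, with 1.37 and 1.49 in WT stress and 5.26 and 2.82 in CAA mock. Its log2 difference was 3.08 ± 0.55 (DESeq2 adjusted p = 5.75e-04). The hypothalamic markers as a list, of which Otp is one, were lowest in WT mock 1, one of the 2 WT mock libraries (mean centred log2 level -2.55).

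For Socs3, a feedback inhibitor of cytokine receptors, the larger single effect was that of stress. Socs3 stood at 2.47 and 2.08 CPM in WT mock, 5.04 and 5.18 in WT stress, 2.39 and 4.39 in CAA mock and 5.72 and 6.70 in CAA stress. Both stressed groups lay above both mock groups without overlap. The combined log2 difference was 1.45 ± 0.35, beside 1.16 ± 0.35 for stress alone and 0.58 ± 0.36 for CAA alone. Foxd1, a forkhead transcription factor gene, differed by 2.57 ± 0.62, with 1.34 for stress alone and 1.25 for CAA alone; at 0.323 to 3.27 CPM in the 8 libraries its departure had the wide interval of -1.89 to 1.84 around -0.02. Cebpd, a transcription factor gene induced by glucocorticoids and cytokines, stood at 6.89 and 8.59 CPM in WT mock and 23.3 and 13.3 CPM in CAA stress. It differed by 1.24 ± 0.28, with 0.30 for stress and 0.72 for CAA alone, by 0.79 without CAA stress 1 and by 0.64 in males. Nr2f2, a nuclear receptor gene of interneurons and vessels, differed by 1.11 ± 0.26, and Slc29a4, a monoamine transporter gene, by 0.97 ± 0.23. For both of these, CAA alone gave a value of the size of the combined one (1.31 and 0.97). Stra6, the receptor for retinol-binding protein, differed by 1.47 ± 0.32, and Ache, acetylcholinesterase, by 0.82 ± 0.19, with values of 0.16 to 0.46 for either single insult.

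Among the lower genes, Pcsk1, the convertase that processes prohormones and proneuropeptides, stood at 73.9 and 65.3 CPM in WT mock, 67.2 and 50.9 in WT stress, 46.3 and 50.3 in CAA mock and 36.5 and 38.4 in CAA stress. The CAA stress libraries lay below the 6 others. Its log2 difference was -0.89 ± 0.17 (DESeq2 adjusted p = 0.0306), with -0.24 for stress alone and -0.53 for CAA alone. The departure was -0.13 ± 0.24, and the observed mean of 37.4 ± 1.29 CPM (SD, n = 2) lay beside 37.7 CPM for summed CPM effects and 41.0 CPM for summed log2 effects. Kcnt2, a sodium-activated potassium channel gene, differed by -0.88 ± 0.19, with -0.36 and -0.73 for stress and CAA alone. Ddit4l, an inhibitor of mTOR signalling, differed by -1.23 ± 0.28, with -0.27 and -1.19.

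Nr4a2, a nuclear receptor gene induced by neuronal activity, had another order of levels. It stood at 48.3 and 30.5 CPM in WT mock, 34.3 and 25.6 in WT stress, 46.7 and 48.8 in CAA mock and 19.3 and 17.8 in CAA stress. Its log2 difference was -1.08 ± 0.23 (DESeq2 adjusted p = 0.0373), with -0.39 for stress alone and 0.28 for CAA alone. The departure of -0.97 ± 0.32 had an interval of -1.67 to -0.27, without adjustment for the number of genes. The mitochondrial transfer RNA for cysteine, mt-Tc, showed a similar order, at 71.4 and 76.1 CPM in WT mock, 38.4 and 34.0 CPM in CAA stress and 55.8 to 91.6 CPM in the 4 single-insult libraries (log2 difference -1.03 ± 0.22, departure -1.15 ± 0.31). The transfer RNA for leucine, mt-Tl1, differed by -1.16 ± 0.22. Pcdh20, a protocadherin gene, differed by -0.94 ± 0.22 and Arhgap15, a Rac GTPase-activating protein gene, by -0.95 ± 0.23. Without WT mock 1, the difference was -0.53 for Pcdh20 (-0.51 in males) and -0.72 for Nr4a2.

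DESeq2 called 8 genes for the combined difference: Wdfy1, Ngef, Otp, Thy1, Pcsk1, Nr4a2, mt-Tl1 and mt-Tc. Of the 20 genes named for it, 18 had a departure interval that included 0, and Nr4a2 and mt-Tc did not. These genes were picked by the combined p and by a lack of overlap between CAA stress and WT mock. The combined difference shares these libraries with the departure, and the single effects share WT mock with it. The values are therefore set side by side and are no independent check of one another.

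**Figure D2:**
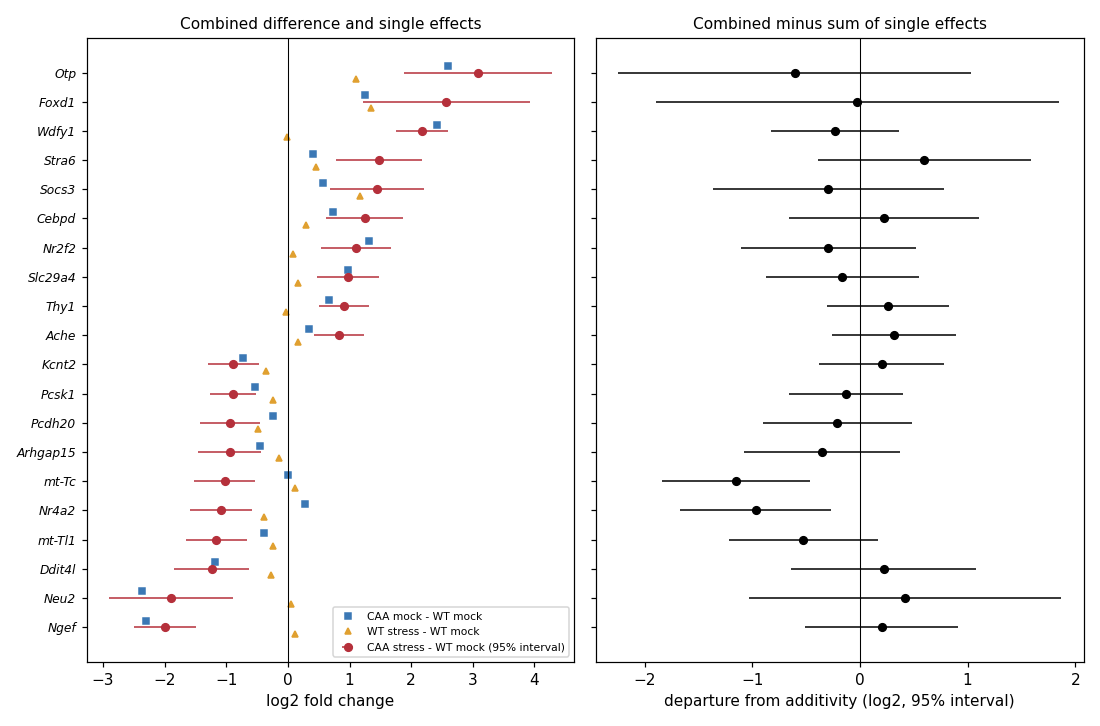
Log2 values of the 20 genes named for the combined difference: left, CAA stress minus WT mock with its 95% interval (circles), CAA alone (squares) and stress alone (triangles); right, the departure from the sum of the single effects with its 95% interval. The departure intervals of 18 genes include 0, and those of mt-Tc and Nr4a2 lie below it.

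No gene passed the test for a departure from additivity in edgeR (0% of those tested; smallest adjusted p = 0.995), and 595 genes had an unadjusted p under 0.05, fewer than the 859 that are 5% of the tested genes. DESeq2 called 4: Fabp7 and Ccl27a (adjusted p = 0.0355 each), Gm12191 (adjusted p = 0.0383) and Xist, whose counts follow the sex of the libraries. The absence of calls does not show that the effects sum. The median half-width of the 95% interval of the departure was 0.76 in log2 units. For 45.0% of the genes with an interval, it lay wholly within -1 to 1, which bounds the departure to less than a doubling or halving, and for 21.9% it reached past both limits. Among the 9921 genes with a mean of at least 10 CPM, 73.9% had an interval within these limits and the median half-width was 0.59. The median departure over all tested genes was 0.00.

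For comparison, CAA alone called the same 2 genes, Wdfy1 and Ngef (0.0116% of those tested), with 688 genes at an unadjusted p under 0.05. Stress alone called 0 genes (0%; DESeq2 also 0), with 273 genes at an unadjusted p under 0.05.

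The genes with the smallest p for the departure are given as values; none passed in edgeR. The WT mock libraries enter the departure and, with the opposite sign, both single effects, so the signs of the single effects of genes picked by the departure are partly set by that choice and are given as values only. Cux2, a transcription factor gene of upper cortical layers, stood at 91.2 and 65.5 CPM in WT mock, 70.0 and 51.2 in WT stress, 53.9 and 46.4 in CAA mock and 74.7 and 99.9 in CAA stress. CAA stress overlapped WT mock and lay above CAA mock. The single log2 effects of -0.37 (stress) and -0.64 (CAA) would place CAA stress at 38.8 CPM; the departure was 1.17 ± 0.31 (95% interval 0.49 to 1.86). Dagla, which makes the endocannabinoid 2-arachidonoylglycerol at synapses, stood at 102 and 73.7 CPM in WT mock, 71.4 and 69.5 in WT stress, 63.7 and 60.2 in CAA mock and 85.7 and 103 in CAA stress (departure 0.92 ± 0.25).

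Tspoap1, a gene of the presynaptic active zone, departed by 1.04 ± 0.28, the clock gene Per2 by 1.04 ± 0.28 and the adrenergic receptor gene Adra1d by 1.45 ± 0.39. Carbonic anhydrase gene Car7 departed by 1.37 ± 0.35. Adgra2, a co-receptor for Wnt7 in brain endothelium, departed by 1.09 ± 0.30; it stood at 11.4 and 10.7 CPM in WT mock and 15.5 and 18.5 CPM in CAA stress, above all 6 other libraries. Serpinb8, a serine protease inhibitor gene, stood at 8.28 and 10.4 CPM in WT mock and at 2.39 and 2.42 CPM in CAA mock, against 11.5 and 7.11 CPM in WT stress and 5.94 and 8.95 CPM in CAA stress. The CAA mock libraries alone were low, and the departure was 1.63 ± 0.45. Ccl27a, a chemokine gene, had 149 and 52 counts in WT mock, 24 and 19 in WT stress, 2 and 18 in CAA mock and 40 and 55 in CAA stress, so its departure of 4.36 ± 1.02 rests on few counts; on the CPM scale the single effects would sum to less than 0. Hic1, a transcriptional repressor gene, departed by 2.71 ± 0.75 at 0.441 to 2.24 CPM.

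Among the named negative departures, Fabp7, the fatty acid-binding protein of radial glia and astrocytes, stood at 37.8 and 52.1 CPM in WT mock, 76.1 and 58.0 in WT stress, 67.3 and 74.4 in CAA mock and 42.5 and 27.3 in CAA stress. Each single-insult library lay above the WT mock libraries, and CAA stress overlapped WT mock. The single log2 effects were 0.58 (stress) and 0.66 (CAA), the combined difference -0.37 ± 0.24 and the departure -1.60 ± 0.33 (95% interval -2.33 to -0.86). Summed log2 effects would give 106 CPM and summed CPM effects 92.9 CPM; the mean was 34.9 ± 10.7 CPM (SD, n = 2). Ide, the insulin-degrading enzyme, which also cleaves amyloid-beta, stood at 51.0 and 54.8 CPM in WT mock, 74.7 and 47.7 in WT stress, 68.1 and 111 in CAA mock and 42.1 and 43.4 in CAA stress. CAA stress lay below all 6 others, and the departure was -1.28 ± 0.36.

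Dcn, the matrix proteoglycan decorin, stood at 18.8 and 12.9 CPM in WT mock, 19.2 and 11.2 in WT stress, 32.7 and 53.6 in CAA mock and 14.0 and 14.6 in CAA stress. Only the unstressed CAA libraries were high; the combined difference was -0.15 ± 0.31, CAA alone 1.44 ± 0.30 and the departure -1.54 ± 0.44. Hey2, a Notch target gene, stood at 6.62 and 6.83 CPM in WT stress against 3.28 to 4.90 CPM in the other 6 libraries (departure -1.26 ± 0.40). The ribosomal protein gene Rps27 departed by -1.03 ± 0.29, the mitochondrial ribosomal protein gene Mrpl42 by -0.69 ± 0.21, Polr2k, a subunit gene of RNA polymerases, by -1.18 ± 0.36, the zinc finger gene Zfp330 by -0.78 ± 0.25 and the mitochondrial transfer RNA mt-Tp by -1.01 ± 0.21.

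Since the 2 female libraries are WT mock 1 and CAA stress 1, sex and a departure cannot be told apart in the fit without a term for sex. With that term, and in the 6 males alone, the departures were -1.68 and -1.72 for Fabp7 and -1.20 and -1.19 for Ide. They were 1.14 and 1.12 for Cux2, -1.79 and -1.79 for Dcn and 2.05 and 2.06 for Serpinb8. In both fits the departure rests on WT mock 2 and CAA stress 2, the only male libraries of their groups. The paired values are therefore close to a single check. Leaving out each library in turn gave -1.94 to -1.32 for Fabp7, -1.59 to -0.88 for Ide, 0.91 to 1.41 for Cux2 and -1.87 to -1.10 for Dcn.

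**Figure D3:**
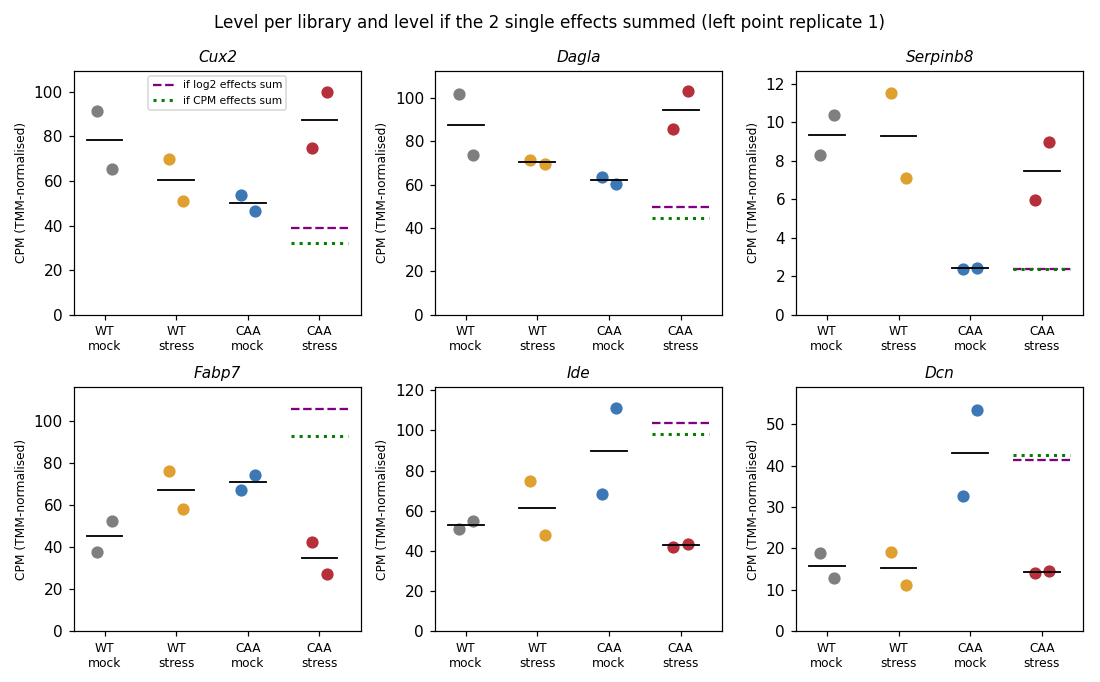
CPM of 6 of the genes with the smallest p for the departure, in each library (replicate 1 on the left; bar, mean of 2), with the level that CAA stress would have if the single effects summed on the log2 scale (dashed) or on the CPM scale (dotted). Cux2, Dagla and Serpinb8 lie above both lines in CAA stress, and Fabp7, Ide and Dcn below both.

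Gene lists for cell types, pathways and brain regions are described next by the number of members with a higher or lower value in CAA stress than in WT mock and by their median. No list member passed the edgeR test for either the combined difference or the departure (smallest adjusted p = 0.730 and 0.995). Over all tested genes 50.9% had a higher and 49.1% a lower value in CAA stress; in 19.8% both CAA stress libraries lay above both WT mock libraries, and in 20.2% below. For the departure, 50.4% of genes had a positive and 49.6% a negative value. In RNA of whole tissue, fewer cells of a type and less RNA per cell cannot be told apart.

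Of the 18 fibroblast and matrix genes, which make up the outer vessel wall and the meninges, 16 had higher values in CAA stress, with a median log2 difference of 0.61, and in 11 both CAA stress libraries lay above both WT mock libraries. Col1a2, a chain of type I collagen, stood at 9.41 and 10.2 CPM in WT mock, 10.8 and 11.1 in WT stress, 5.90 and 14.3 in CAA mock and 17.4 and 34.0 in CAA stress (log2 difference 1.39 ± 0.41, edgeR adjusted p = 0.730). CAA stress 2 was the higher of the pair, as it was for Aebp1, a collagen-binding protein of the matrix (9.31 and 5.84 CPM in WT mock, 12.9 and 34.8 in CAA stress; log2 difference 1.65 ± 0.50). The list's median was 0.24 for stress alone and 0.02 for CAA alone, and 12 of 18 genes had a positive departure, with a median of 0.40. The CAA mock libraries differed, with a mean centred log2 level of -0.58 and 0.37, beside 0.10 and 0.76 in CAA stress. CAA mock 2 thus lay above CAA stress 1. The matrix gene Dcn, described above, had a negative departure (-1.54). Without CAA stress 2 the combined median was 0.35 with 15 of 18 higher. The departure's median ranged from 0.00 to 1.01 over the omission of single libraries.

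Of 13 MHC and antigen presentation genes, 11 had higher values in CAA stress (median 0.36), 7 of them without overlap between the groups. H2-Ab1, a chain of MHC class II, stood at 0.699 and 0.730 CPM in WT mock, 2.46 and 1.16 in WT stress, 1.40 and 1.46 in CAA mock and 2.07 and 2.20 in CAA stress. Cd74, the class II invariant chain, stood at 1.56 and 2.30, 7.72 and 4.08, 2.80 and 5.46, and 5.18 and 4.61 CPM in the same order. For both genes all 6 libraries with an insult lay above both WT mock libraries. Stress alone gave 1.61 for Cd74, CAA alone 1.10 and both together 1.34 ± 0.43 (edgeR adjusted p = 0.730), so that the departure was -1.37 ± 0.59. In summed CPM, which the abundant class I genes dominate, the groups overlapped (209 and 185 in WT mock, 223 and 179 in CAA stress). The list's median departure was -0.48, and lay between -0.63 and -0.16 when single libraries were left out.

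Markers of macrophages at the borders of the brain mostly had higher values in CAA stress. Of microglia, the resident macrophages of the brain, the homeostatic markers mostly had lower values. The disease-associated microglial genes, also described below, had higher values in 16 of 19 tested members, 5 of them without overlap. Mrc1, the mannose receptor of border macrophages, stood at 2.26 and 1.46 CPM in WT mock, 4.11 and 2.76 in WT stress, 2.22 and 3.77 in CAA mock and 3.76 and 7.34 in CAA stress, without overlap between CAA stress and WT mock. Its log2 difference was 1.57 ± 0.44, beside 0.88 for stress and 0.69 for CAA alone and a departure of 0.01 ± 0.63. Cd163, the haemoglobin scavenger receptor of the same cells, stood at 1.83 and 2.25 CPM in WT mock and 3.16 and 3.80 in CAA stress (0.77 ± 0.35, edgeR adjusted p = 0.730). Over the 7 tested genes of 10 listed, the median was 0.66 for both insults, 0.88 for stress alone and 0.69 for CAA alone. The departure was negative for 5 of 7, with a median of -0.42 that ranged from -0.78 to -0.0097 when single libraries were left out. The other 3, monocyte genes (Ccr2, Ly6c2 and Plac8), had at most 9 counts in any library and were not tested. The list's mean centred log2 level was 0.63 in WT stress 1 but -0.31 in WT stress 2, beside -0.50 in both WT mock libraries. Red cell genes summed to 114 CPM in WT stress 1 and to 2.20 to 16.2 CPM in the other libraries. Whether blood had a part in these values was not tested.

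Of 13 homeostatic microglial genes, 12 had lower values in CAA stress, with a median of -0.24, and 7 of them did not overlap. Stress alone gave the same median of -0.24, with 12 of 13 lower, and CAA alone 0.00. The 2 WT stress libraries differed, however. The list's mean centred log2 level was 0.17 in WT stress 1, between the 0.08 and 0.22 of WT mock, and -0.30 in WT stress 2. In CAA stress it was -0.05 and -0.40. The purinergic receptor genes led the list. P2ry13 stood at 12.5 and 9.43 CPM in WT mock, 10.4 and 7.66 in WT stress, 9.87 and 11.3 in CAA mock and 6.16 and 4.34 in CAA stress (-1.06 ± 0.28, edgeR adjusted p = 0.730). P2ry12 stood at 33.8 and 37.8, 38.8 and 21.7, 40.4 and 31.4, and 24.2 and 16.6 CPM in that order (-0.81 ± 0.28). For P2ry13 both CAA stress libraries were the lowest of the 8. P2ry12 and P2ry13 share 46600 and 2991 bases with Med12l on the other strand, which had at most 390 counts in a library. As with Ngef and Neu2, reads cannot be told apart where these genes overlap. Csf1r, the growth factor receptor of the lineage, differed by 0.00 ± 0.20. The list's combined median was -0.12 without CAA stress 2 and -0.45 without CAA stress 1, and its departure had a median of -0.10 that turned to 0.06 at the highest when single libraries were left out.

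The disease-associated microglial genes, which microglia switch on near amyloid plaques, had a higher mean centred log2 level in CAA mock (0.22 and 0.63) than in CAA stress (-0.07 and 0.17). In summed CPM, which the abundant members dominate, these groups overlapped (3423 and 2803 in CAA mock, 3786 and 2757 in CAA stress). Over the 19 of 22 genes tested the median was 0.38 for CAA alone, 0.04 for stress alone and 0.19 for both, and 14 of 19 had a negative departure (median -0.24). The 3 untested members, Lilrb4a, Ccl3 and Ccl4, had at most 11 counts in any library. Itgax, the integrin CD11c, had 1 count in each WT mock library, 7 and 25 counts in CAA mock and 5 and 12 counts in CAA stress. Clec7a, the receptor dectin-1, stood at 0 and 0.225 CPM in WT mock, 0.993 and 2.20 CPM in CAA mock and 0.109 and 0.750 CPM in CAA stress, which overlapped WT mock. Apoe, the lipid carrier of astrocytes and microglia, differed by 0.62 ± 0.24 (edgeR adjusted p = 0.730), at 1330 and 1436 CPM in WT mock and 2590 and 1655 CPM in CAA stress.

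Of 17 neutrophil and trap genes only 6 had enough counts to be tested, so their number and median are not used here. Padi4, the enzyme that citrullinates histones in trap formation, had 2 and 0 counts in WT mock, 2 and 0 in CAA stress and 0 in the 4 other libraries. Mpo, myeloperoxidase, had 2 and 5 counts in WT mock and 2 and 3 in CAA stress. Differences in either gene were not detectable at this depth. S100a8 and S100a9, the calprotectin subunits abundant in neutrophils, stood at 1.74 and 1.69 CPM in CAA stress 1 but at 0.429 and 0.482 CPM in CAA stress 2, which overlapped WT mock (0.112 to 0.538 CPM for both genes). Lcn2, a protein of neutrophils and of reactive astrocytes, stood at 0.484 and 0.0561 CPM in WT mock and 3.65 and 0.804 CPM in CAA stress (3.0 ± 1.04, edgeR adjusted p = 0.730). Among genes of leukocyte recruitment, Cxcl1 had 90 counts in WT stress 1 and 0 to 7 in the other 7 libraries, and Ccl2 stood at 4.11 CPM there against 0 to 0.606 CPM; neither was high in CAA stress.

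**Figure D4:**
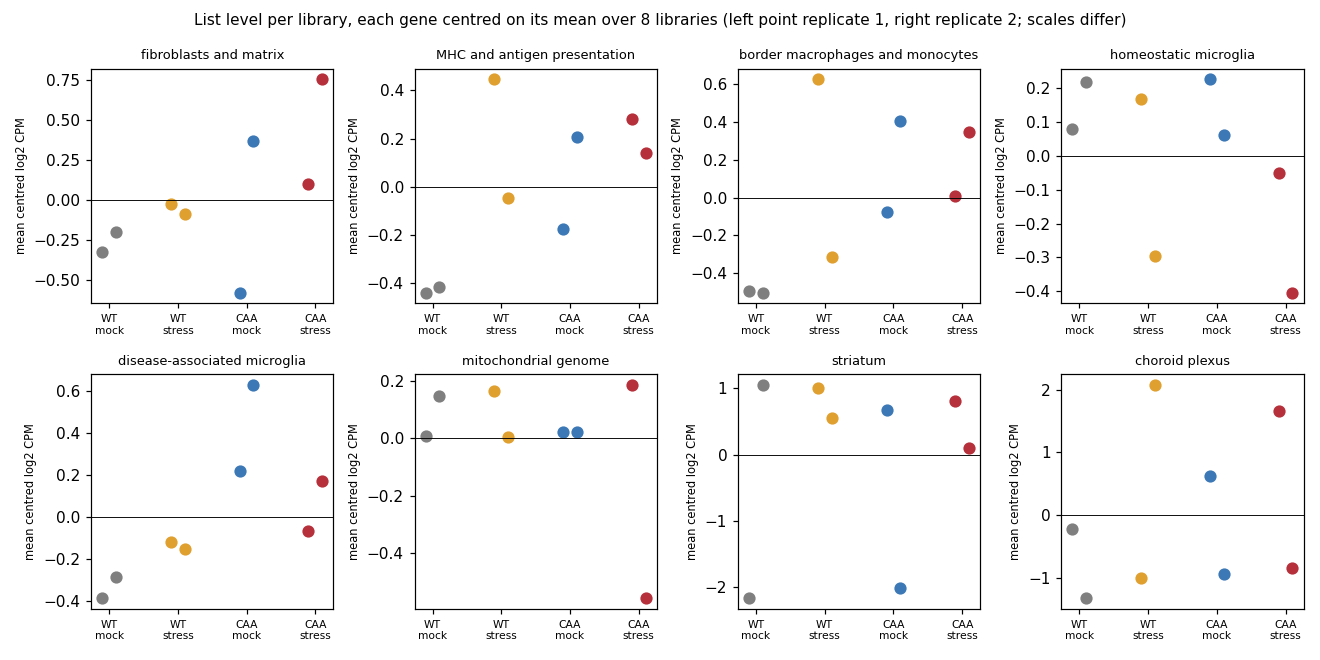
Level of 8 gene lists in each library, as the mean over members of log2 CPM centred on each gene's mean over the 8 libraries (replicate 1 on the left; the vertical scales differ between panels). Fibroblast and matrix genes are highest in CAA stress 2 and MHC genes lowest in WT mock, while the striatal and choroid plexus markers separate replicates of the same group.

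Reactive astrocyte genes had higher values in 12 of 13 tested members (16 listed), with a median of 0.46, and 7 did not overlap. C4b, a complement component that reactive astrocytes make, stood at 17.5 and 15.3 CPM in WT mock, 20.5 and 15.9 in WT stress, 15.9 and 25 in CAA mock and 25.5 and 36.6 in CAA stress, which lay above the 6 others (0.92 ± 0.26, edgeR adjusted p = 0.730). Gfap, the intermediate filament of astrocytes, did not follow the list: at 323 and 197 CPM in WT mock and 317 and 251 CPM in CAA stress it differed by 0.13 ± 0.30, while CAA mock stood at 390 and 676 CPM. The list's median was 0.18 without CAA stress 2 and 0.72 without CAA stress 1, and its departure (median -0.28) changed sign between libraries left out (-0.49 to 0.23).

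Of the 12 excitatory forebrain neuron genes, 10 had lower values with stress alone (median -0.25) and 12 with CAA alone (-0.40). With both insults 8 had lower values (median -0.21), and 11 of 12 had a positive departure, with a median of 0.49. That median stayed between 0.25 and 0.77 when single libraries were left out, and was 0.20 at the lowest over all settings. Replicates differed: the list's mean centred log2 level was 0.48 and 0.04 in WT mock and -0.25 and 0.26 in CAA stress. In CAA mock it was -0.19 and -0.27. Besides Cux2, described above, Emx1, a homeobox gene of the cortex, stood at 17.9 and 9.09 CPM in WT mock, 9.63 and 8.60 in WT stress, 10.6 and 7.27 in CAA mock and 10.5 and 16.4 in CAA stress (departure 1.16 ± 0.48). CAA stress lay within the WT mock range. The combined median turned to 0.33 in males. Neurod6 (-1.02 ± 0.34) and Rorb (-0.47 ± 0.16) had the smallest p of the list for the combined difference (edgeR adjusted p = 0.730 for both).

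Genes induced by glucocorticoids had higher values in 15 of 22 members, with a median of 0.32, beside 0.24 for stress and 0.38 for CAA alone and a median departure of -0.01. Ddit4, an inhibitor of mTOR signalling, stood at 52.2 and 49.8 CPM in WT mock and 108 and 67.3 CPM in CAA stress (0.78 ± 0.21, edgeR adjusted p = 0.730). Fkbp5, a co-chaperone of the glucocorticoid receptor, stood at 34.5 and 49.0 CPM in WT mock, 56.0 and 53.7 in WT stress, 59.1 and 44.4 in CAA mock and 62.0 and 60.2 in CAA stress (0.55 ± 0.20). CAA stress 1 carried much of the list: the median was 0.04 without it and 0.03 in males. Of 19 immediate early genes, which neuronal activity induces, 14 had lower values (median -0.36), among them Nr4a3 (-0.90 ± 0.23) beside Nr4a2, and 9 did not overlap. CAA alone gave a median of -0.53, with 15 of 19 lower, stress alone -0.08 and the departure 0.13, unlike Nr4a2, for which CAA alone gave 0.28 and the departure was -0.97. Jun was higher instead, at 42.6 and 35.3 CPM in WT mock and 52.9 and 66.9 CPM in CAA stress (0.62 ± 0.18, edgeR adjusted p = 0.730). Without WT mock 1 the list's median was -0.04.

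Of 13 genes of the mitochondrial genome, 10 had lower values in CAA stress (median -0.41), while their median was 0.02 for stress and -0.04 for CAA alone. mt-Nd2, a subunit of complex I, stood at 6547 and 7375 CPM in WT mock, 7335 and 6363 in WT stress, 6253 and 7201 in CAA mock and 5349 and 4001 in CAA stress (-0.57 ± 0.18, departure -0.50 ± 0.26). For this gene the CAA stress libraries were the lowest of the 8, CAA stress 2 most so, and without that library the list's median was -0.19. As a list, however, the mean centred log2 level was -0.56 in CAA stress 2 and 0.19 in CAA stress 1, the highest of the 8 libraries, in which mt-Co3, mt-Atp6 and mt-Atp8 were high. The 25 nuclear genes of the respiratory chain had a median of -0.02, with 12 of 25 higher. Whether RNA quality or cell composition had a part in the mitochondrial values was not tested.

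App, the amyloid precursor gene, stood at 1257 and 1053 CPM in WT mock and 1222 and 1337 CPM in CAA stress, with overlap (0.15 ± 0.15), and 7 of the 14 genes of amyloid processing had higher values (median 0.04). Medians were -0.12 for endothelial (15 genes), -0.06 for mural (15 genes), -0.07 for synaptic (20 genes) and -0.21 for interferon-induced genes (14 tested genes). Their sign changed with the libraries left out.

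The combined medians of most lists of brain regions depended on single libraries. Of 12 striatal markers 11 had higher values in CAA stress (median 0.34), but 0 of 12 did without WT mock 1 (median -0.55). Choroid plexus markers were higher in 15 of 16 (median 1.54) and in 6 of 16 without CAA stress 1 (-0.19). Thalamic markers went from 10 of 12 higher (0.56) to 4 of 12 (-0.29) without the same library, and hippocampal markers from 9 of 10 lower (-0.60) to 5 of 10 (-0.02) without WT mock 1. Hypothalamic markers remained mostly higher without WT mock 1 (10 of 13, median 0.79 against 1.45). Olfactory bulb markers had a combined median of 0.01, which ranged from -2.07 to 2.88 when single libraries were left out. Their mean centred log2 level was low in both CAA mock libraries (-0.80 and -1.38) and high in both WT stress libraries (1.19 and 1.52). WT mock stood at -2.35 and 1.38, and CAA stress at -0.61 and 1.04. Myelin genes, at a median of -0.10, gave 0.42 without CAA stress 2 and -0.70 without CAA stress 1. The part that regional makeup had in any result above was not tested, other than by leaving out WT mock 1 and CAA mock 2. Without this pair Wdfy1 differed by 2.05 and Ngef by -2.08. The medians of the fibroblast and matrix, MHC and border macrophage lists were then 0.60, 0.49 and 0.63. Fabp7 departed by -1.31 without the pair (-1.60 with all 8 libraries), Ide by -0.83 (-1.28) and Cux2 by 0.81 (1.17). These 3 were smaller in size than in any fit with 1 library left out. Dcn departed by -1.44 (-1.54) and Serpinb8 by 1.79 (1.63).

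**Figure D5:**
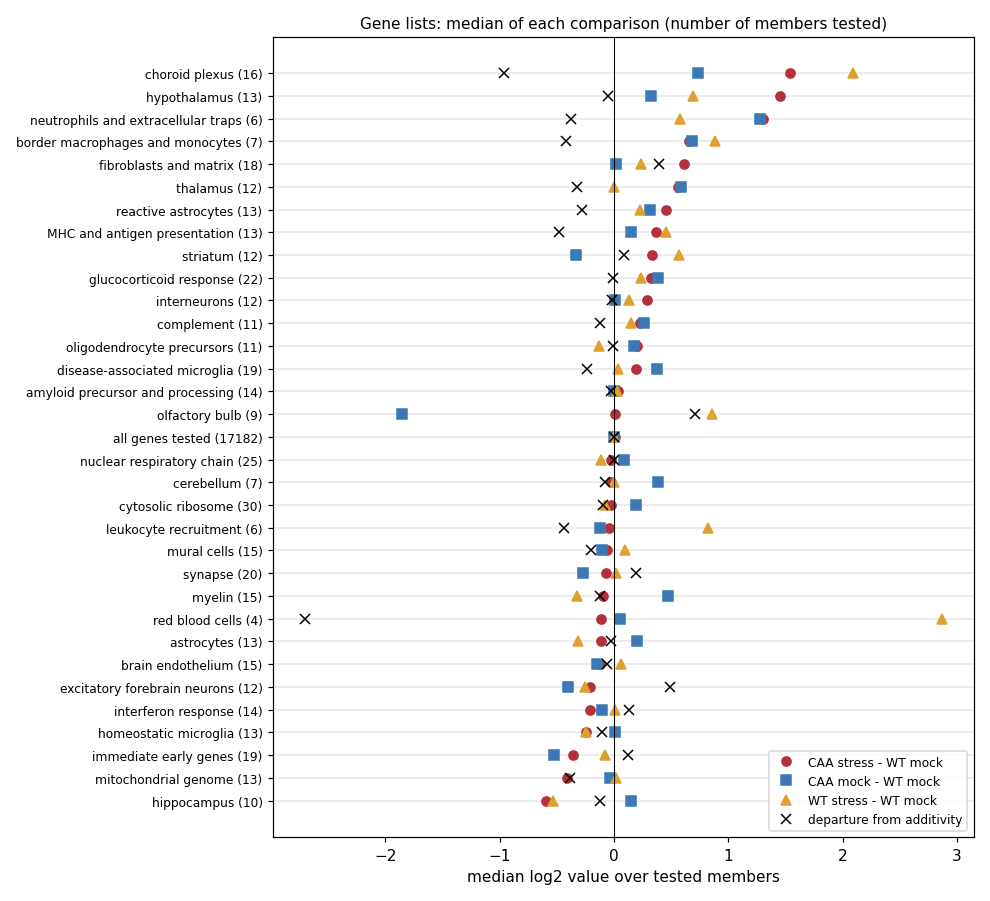
Median log2 value over the tested members of each gene list (number of members in brackets) for CAA stress minus WT mock (circles), CAA alone (squares), stress alone (triangles) and the departure from the sum of the single effects (crosses). For fibroblast and matrix genes the circle (0.61) lies to the right of both single effects, for MHC genes the cross lies at -0.48, and the widest spread is among the lists of brain regions and blood.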

How the data were processed

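Counts of reads per gene were deposited for 8 libraries; the authors aligned reads to mm10 with HISAT2 2.0.5 and counted them with featureCounts 1.5.0-p3, per the submitters' processing notes. FPKM values per gene were deposited by the authors in a separate table and served only as an alternative scale. Settings, strand and annotation release: not given in the sources used here. Libraries were grouped by the treatment and disease state of their labels.

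Genes were kept by filterByExpr (minimum count 10, minimum total 15), scaled by TMM and tested with edgeR 4.0.16 in R 4.3.3 (quasi-likelihood, robust, two-sided) with 1 mean per group, so that all 8 libraries set the spread (residual degrees of freedom 4, biological coefficient of variation 0.206). Benjamini-Hochberg adjustment ran over the 17182 genes, with a threshold of 0.05. The departure is the contrast CAA stress minus CAA mock minus WT stress plus WT mock. Intervals are 95% Wald intervals on the log2 scale. The smallest p of an exact two-sided permutation test of 2 libraries against 2 is 0.333. No libraries were repeats of one another (chi-square per degree of freedom 8.70 to 73.9). The tests were run on simulated counts with known changes, drawn without differences of sex, region or blood between libraries. That check does not cover such differences.

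The rule names genes past the threshold that average 1 CPM or more and have no clone-style symbol. For the combined difference it also asks that the CAA stress and WT mock libraries do not overlap, so that separation is set by the choice. With fewer than 10 of these genes, it adds the 10 higher and 10 lower genes with the smallest p under the same filters. It also names the 2 members of each list with the smallest p, and a set of genes always reported. Further list members were picked with their values in view, and 1 list member is not reported here. The members and lists were chosen with earlier results of these data known. Alternatives were DESeq2 1.42.0 and its size factors in edgeR, no filter, the replicate number or sex as a term, males alone, only the 4 libraries compared, limma 3.58.1 on log2 FPKM plus 1 or 0.1, each library left out in turn, and, added after seeing the data, a fit without the pair of libraries low in striatal markers (WT mock 1 and CAA mock 2).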

Additional observations from a re-analysis of the deposited data

How the results depend on the processing

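The combined comparison called 2 genes. It called 109 with no filter on low counts (29446 genes), where edgeR's estimate of the spread used an infinite prior degree of freedom against 7.29, 8 with DESeq2, 1 with a term for sex, 1 in males, 0 with limma on log2 FPKM plus 1 and 0 with 0.1, and 1 to 3 when single libraries were left out. The departure, with 0 calls, gave 17 with no filter, 4 with DESeq2, 0 to 1 when single libraries were left out, and 1 without the 2 libraries low in striatal markers (chosen after seeing the data). Stress alone, with 0, gave 11 with no filter, 1 in males, 1 without that pair and 0 to 2 when single libraries were left out. CAA alone, with 2, gave 82 with no filter, 20 with DESeq2, 7 with a term for sex, 9 in males, 1 with limma plus 1, 1 with limma plus 0.1, and 1 to 3 when single libraries were left out.

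The replicate numbers are not known to pair samples. Deviations of same-numbered libraries correlated at 0.16 between WT mock and CAA stress, and at -0.32 to 0.00 for the other pairs of groups. With a replicate block the combined comparison called 1 gene, Ngef no longer passing (edgeR adjusted p = 0.0648), and the departure 0. Ngef also missed the threshold with a term for sex (0.0526), with limma (0.203 and 0.219) and without WT mock 1 (0.0587), WT mock 2 (0.0822), WT stress 1 (0.128), WT stress 2 (0.128) or CAA stress 1 (0.389).

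The sign of some named differences, none past the threshold, was opposite in single settings; the cause was not tested. In males these were Mbp (-0.15), Adcy5 (-0.38), Ppp1r1b (-0.46), Calb2 (-0.34), S100a9 (-0.056) and Hba-a1 (-1.40). When single libraries were left out, the difference ranged from -0.34 to 0.91 for Mbp (lowest without CAA stress 1), -0.13 to 1.30 for Adcy5 and -0.031 to 2.33 for Ppp1r1b (both lowest without WT mock 1), and -1.52 to 0.13 for Fibcd1 (highest without WT mock 1). It ranged from -0.19 to 0.52 for Gfap (below 0 without WT mock 2, and at -0.042 without CAA stress 1), -0.12 to 0.73 for Ackr1 and -0.020 to 5.99 for Clec7a (both lowest without CAA stress 2), and -3.86 to 2.32 for Tbx21 (highest without WT mock 2). It ranged from -1.64 to 1.09 for Hba-a1 and -0.17 to 2.54 for Gbx2, both lowest without CAA stress 1. Without the pair low in striatal markers Adcy5 gave -0.13, Ppp1r1b -0.031 and Fibcd1 0.13. Hba-a1 gave -0.16 with the block, -0.070 with a term for sex, and -0.089 and -0.24 with limma. The departure of Ngef ranged from -0.15 (without CAA mock 2) to 0.67 and was -0.060 without the pair, and that of Wdfy1 was 0.023 without the pair. Of 32 lists other than that of sex-linked genes, 16 kept the sign of the combined median in all 18 settings and 8 that of the departure. With 2 libraries a group, departures under about 0.76 in log2 units are within the error of a gene of median precision.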
